A study of Homo sapiens with 6 samples.

Results

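The genes of actin filaments and of the motors that pull on them were examined in breast cancer cells silenced for SAM68. Members were taken by gene symbol. They were the actins ACTB, ACTG1, ACTG2, ACTA2 and ACTC1, and the numbered tropomyosins, calponins and alpha-actinins. The transgelins TAGLN and TAGLN2, caldesmon (CALD1) and myosin light chain kinase (MYLK) were taken as well. Numbered unconventional myosins were taken with or without a letter after the number. Numbered myosin heavy chains and light chains were taken with no letter after the number or a B. The rule took 70 of the 74852 loci of the deposited table. SAM68, encoded by KHDRBS1, is an RNA-binding protein of the STAR family that regulates splicing, and the study compared the transcriptome of MDA-MB-231 cells with and without it. MDA-MB-231 is an established line of triple negative breast cancer with a mesenchymal phenotype. Cells of the si-CTRL group (3 libraries) received a non-targeting pool of siRNAs, and cells of the si-SAM68 group (3 libraries) received a pool of 4 siRNAs against SAM68. Both groups underwent 2 rounds of transfection and were collected 24 h after the second according to the labels, whereas the methods of the study give another harvest time, culture medium and extraction kit. Libraries were made from polyadenylated RNA.

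Actin monomers polymerize into polar filaments. Tropomyosins lie along the filament and set which proteins can bind it, alpha-actinins crosslink filaments into bundles, and calponins, transgelins and caldesmon bind the filament and modulate contraction. Myosins hydrolyse ATP to move along actin, those of class II as bipolar filaments that contract the network and the unconventional classes as carriers or membrane tethers, and in mesenchymal cancer cells such as these the nonmuscle forms build stress fibres and drive migration.

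Of the siRNAs, those of the control pool are not shown, and those against SAM68 are shown because they define the si-SAM68 group. They are designed sequences, printed 5′ to 3′ in lower case, and no base is singled out.
si-SAM68 siRNA 1: gcacccauauggacguuau
si-SAM68 siRNA 2: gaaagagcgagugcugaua
si-SAM68 siRNA 3: uaugauggaugauaucugu
si-SAM68 siRNA 4: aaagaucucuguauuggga

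KHDRBS1 (locus at hg19 chromosome 1, 32479295 to 32526460) gave 15660.4, 14483 and 14737 normalized reads in si-CTRL replicates 1 to 3, where a normalized read is a read count divided by the size factor of its library. In si-SAM68 replicates 1 to 3 it gave 583, 602 and 670.2. The groups lay far apart, and the si-SAM68 mean was 4.13% of the si-CTRL mean, with a log2 fold change of −4.60 ± 0.08 (SE, n = 3 per group; limma, adjusted p = 2.13e-09). All fold changes given here are si-SAM68 vs. si-CTRL on the log2(normalized reads + 1) scale, so that those of low genes are understated, and a gene passed the test when its limma p, adjusted by the Benjamini-Hochberg method over 18849 loci, was under 0.05.

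Depth ranged from 52625492 reads on the loci (si-CTRL replicate 1) to 82568487 (si-SAM68 replicate 2). In the latter library 15.1% of reads lay on a ribosomal RNA locus, against 1.83% to 3.17% in the other libraries. Reads of si-SAM68 replicate 2 had a chi-square per degree of freedom of 386 and 388 against replicates 1 and 3 of its group, but at most 25.5 with that locus left out, beside 18.3 between those replicates. Among the controls, replicate 1 stood apart, at 70.5 and 67.7 without that locus against replicates 2 and 3, which differed from each other by 10.9. By the SD of log2 deviations from the rest of the group, si-CTRL replicate 1 was also the highest (0.492), and the other libraries lay at 0.359 to 0.400. The results below are therefore given with and without single libraries where a call depends on them. The labels do not state whether replicates came from separate cultures, so that p-values measure the spread between these libraries only, which may be technical.

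The line showed its markers. Vimentin (VIM), a mesenchymal intermediate filament, ranged from 138300.3 to 173162 normalized reads over the 6 libraries, CD44 from 43246 to 68397 and AXL from 43113 to 60461. The hormone receptor genes ESR1 and PGR and the epithelial adhesion genes CDH1 and EPCAM reached at most 15.2, 0, 4.60 and 9.20 normalized reads. Because the members include muscle isoforms, markers of muscle were examined as well. Of 7 skeletal muscle markers, MYOD1 and MYOG were at 0 in every library, and the list summed to 15.5 to 32.5 normalized reads in si-CTRL and 26.2 to 35.9 in si-SAM68 cells, with DES as its most abundant gene. The 3 cardiac markers summed to at most 13.4 normalized reads in any library, with NPPA at 0 throughout and TNNI3 as the most abundant. Among 5 smooth muscle markers SYNPO2 was the most abundant, at 58.0 to 88.7, MYOCD lay at 11.4 to 32.5, and none of the 3 that were tested passed the test. The 3 leukocyte markers summed to 6.25, 19.4 and 14.3 normalized reads in si-CTRL and 7.05, 16.6 and 6.70 in si-SAM68 libraries, with PTPRC as the most abundant over all libraries.

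Of the 70 member loci, 50 reached the mean of 10 normalized reads over the 6 libraries that was required for testing, 11 lay above 0 but under it, and 9 were at 0 in every library. Genes were compared per kilobase of annotated exons. The length is the union over annotated transcripts, so that genes with exons not used in these cells are understated. On this scale beta-actin (ACTB) was the most abundant with 98120.4 ± 4133 normalized reads in si-CTRL cells (SD, n = 3). Gamma-actin (ACTG1) followed with 31115 ± 1739, and ACTN1 (24751 ± 2396), TPM4 (23964 ± 3522), MYH9 (22620.0 ± 3091) and MYL6 (22285 ± 3852) came next without differing beyond their spread. The most abundant genes were thus nonmuscle forms. At the other end, the hair cell myosin MYO15A gave 1.69 ± 0.36 and the muscle heavy chain MYH7B 2.33 ± 0.74.

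**Figure D1:**
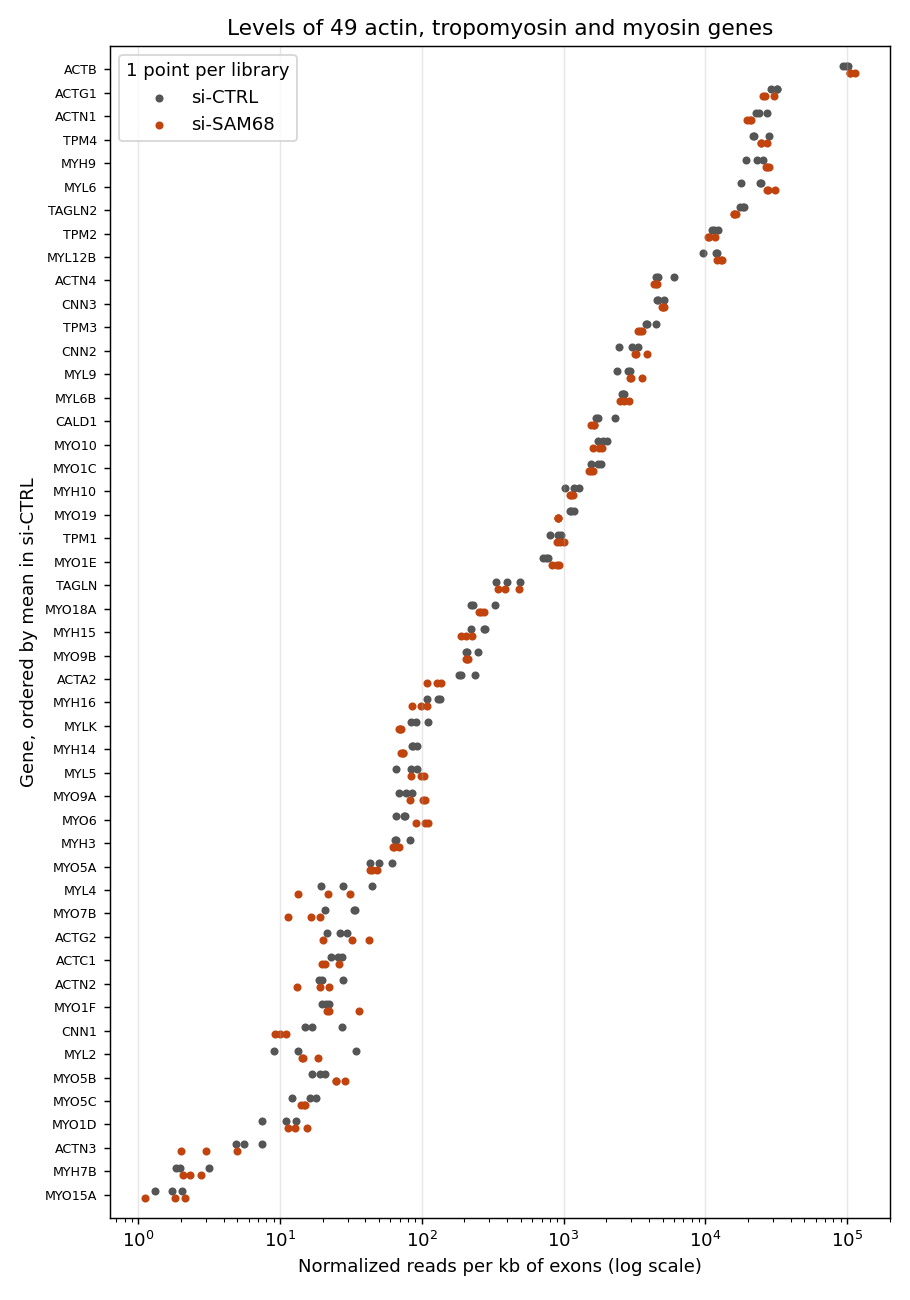
Normalized reads per kilobase of exons (log axis) of 49 tested genes, ordered by their si-CTRL mean, with 1 point for each of the 3 si-CTRL (grey) and 3 si-SAM68 (orange) libraries. ACTB lies above all other genes in every library, and MYO15A and MYH7B have the lowest si-CTRL means.

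In limma, 5 of the 50 tested members passed the test. The actin ACTA2, the kinase MYLK and the unconventional myosins MYO19 and MYO7B fell, the unconventional myosin MYO6 rose, and the other 45 tested members did not pass the test. These 5 are 10.0% of the 50, and 10.7% of all 18849 loci tested passed (2017 loci). By direction, 1 member was higher, beside 4.47% of all loci, and 4 were lower, beside 6.23%. The median log2 fold change was −0.06 over the tested members (−0.015 without si-CTRL replicate 1 and −0.13 without si-CTRL replicate 3) and 0.01 over all loci, and the median of its absolute value was 0.22 and 0.19. Groups did not overlap for 19 members (38.0%; 8 higher and 11 lower in si-SAM68 cells), beside 33.9% of all loci. The methods of the study called genes by a p up to 0.05 together with a fold change from 1.5 upwards, without saying whether p was adjusted. By these thresholds on the unadjusted limma p 3 members passed, ACTA2, MYO7B and the calponin CNN1, all lower, and 7.67% of all loci passed (1445 loci). The study's own calls came from another analysis and annotation, and fewer genes passed there. By limma the share of members that passed was thus near that of the whole table. An unadjusted p under 0.05 was found for 34.0% of the members and 27.0% of all loci. The 28 members with a mean of at least 1000 normalized reads had log2 fold changes between −0.44 and 0.37. The median of their absolute values was 0.18, beside 0.14 for all loci at that level. On whole reads recovered from the values, edgeR called the same 5 members, and DESeq2 called these 5 together with ACTN1, MYH15, MYL6, MYO1E and MYO5B (10 of the 50 members, beside 14.9% of all loci). Since RNA was taken from bulk cultures, fewer cells expressing a gene and less RNA per cell cannot be told apart.

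**Figure D2:**
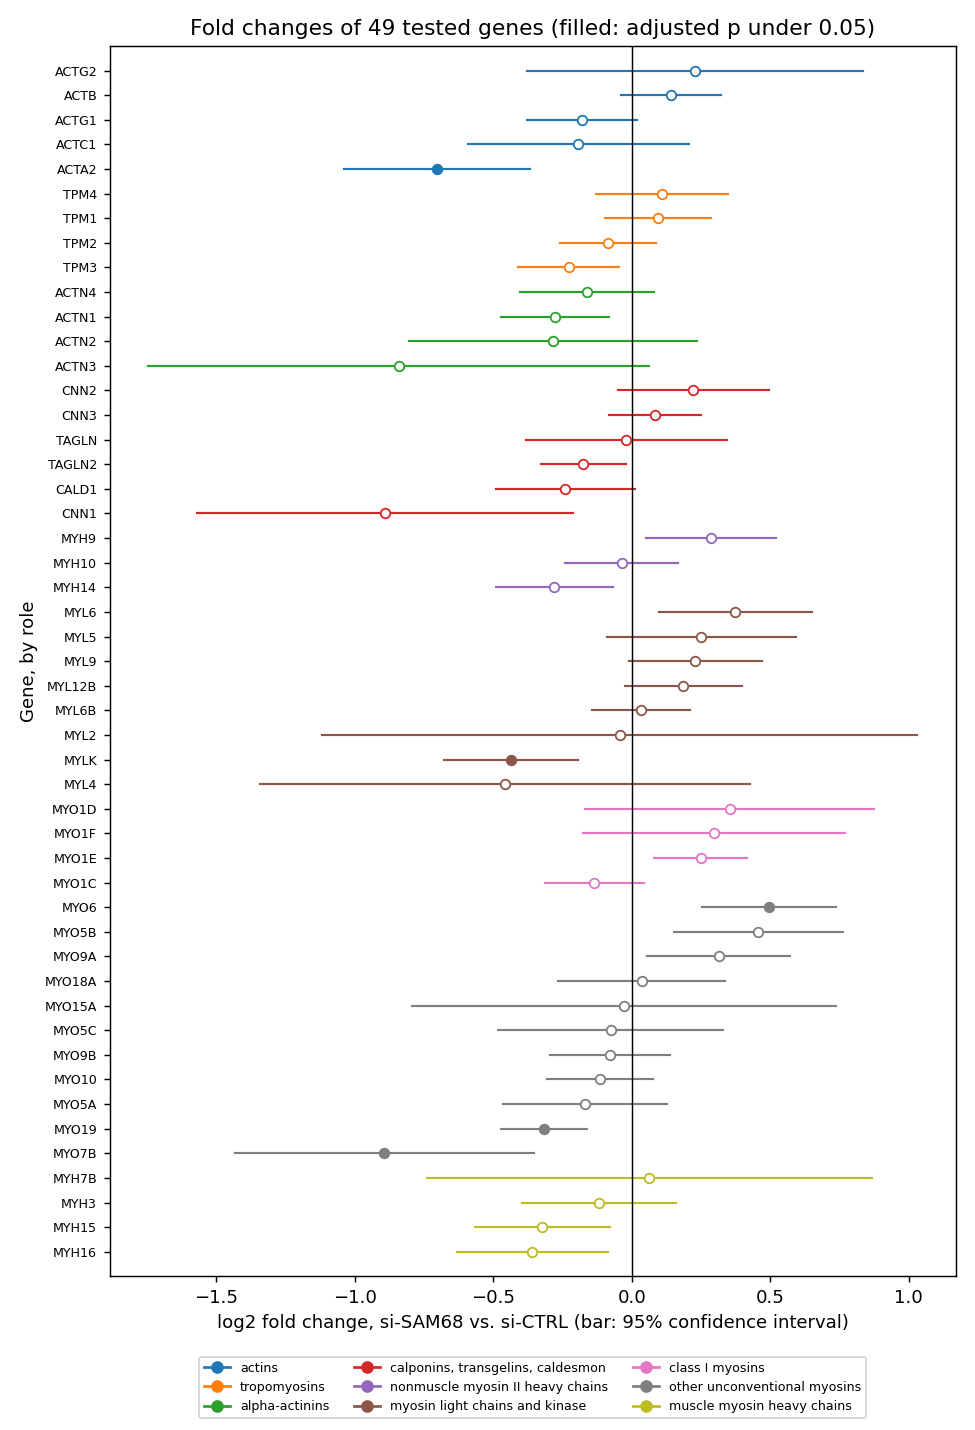
Log2 fold change, si-SAM68 vs. si-CTRL, of 49 tested genes with its 95% confidence interval, colored by role. Filled circles mark the 5 genes with an adjusted p under 0.05, of which MYO6 lies right of 0 and ACTA2, MYLK, MYO19 and MYO7B lie left of it.

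The count of members that passed changed when single libraries were left out, although the log2 fold changes of the 5 kept their direction in all 16 alternatives. It was 9 without si-CTRL replicate 1, 5 without si-CTRL replicate 2 and 2 without si-CTRL replicate 3. Without si-SAM68 replicate 1 it was 1, and without replicate 2 or replicate 3 of that group it was 0. Over all loci the number that passed was 2839, 1592 and 1103 without the si-CTRL replicates and 923, 808 and 625 without the si-SAM68 replicates. Only MYO6 passed without si-SAM68 replicate 1, and only ACTA2 and MYO6 passed without si-CTRL replicate 3. With same-numbered libraries paired (a replicate block in limma), 4 members and 1697 of all loci passed, and the member lost was MYO7B (adjusted p = 0.0579). In limma without a mean-variance trend none of the 5 passed, with adjusted p between 0.0510 and 0.1155.

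**Figure D3:**
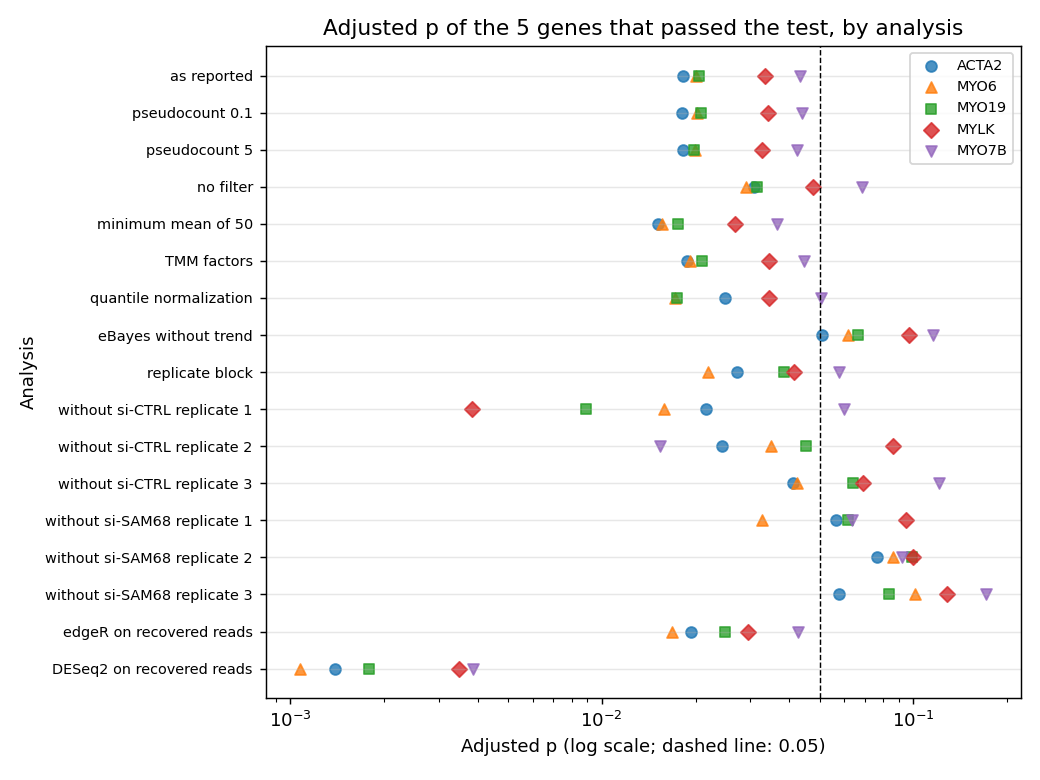
Adjusted p (log axis) of the 5 genes that passed the test, as reported and in 16 other analyses, with 1 symbol per gene and a dashed line at 0.05. Points right of the line, where the gene no longer passed, lie mostly in the analyses that left out a si-SAM68 library and in limma without a mean-variance trend.

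Among the actins, the smooth muscle isoform ACTA2 fell and the cytoplasmic isoforms did not pass the test. ACTA2, which marks contractile myofibroblasts and smooth muscle (chromosome 10, 90694831 to 90751154), gave 321, 247 and 256 normalized reads in si-CTRL replicates 1 to 3 and 173, 147 and 183 in si-SAM68 replicates 1 to 3. Every si-SAM68 library lay below every si-CTRL library, and the highest value was that of si-CTRL replicate 1. The si-SAM68 mean was 61.1% of the si-CTRL mean, with a log2 fold change of −0.70 ± 0.15 (SE; limma, adjusted p = 0.0183). Values rested on 255 to 269 reads per si-CTRL and 160 to 172 per si-SAM68 library. The call was lost without si-SAM68 replicate 1, 2 or 3 (limma, adjusted p = 0.0566, 0.0766 and 0.0578), with log2 fold changes of −0.73, −0.61 and −0.77, and the adjusted p ranged from 0.00139 to 0.0766 over 16 alternatives. Its locus overlaps those of FAS, STAMBPL1 and the antisense ACTA2-AS1, and whether strand was used in counting is not given in the sources used here, so that reads can be shared between them. FAS gave 834, 972 and 957 normalized reads in si-CTRL and 1304, 1405 and 1376 in si-SAM68 libraries, above ACTA2 and in the opposite direction, and the part of its reads in ACTA2 was not tested.

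The cytoplasmic actins ACTB and ACTG1 encode nearly identical proteins that make up most actin of nonmuscle cells. ACTB gave 186368, 202514 and 197192 normalized reads in si-CTRL and 226691, 210623 and 209146 in si-SAM68 libraries, so that all si-SAM68 values were above all si-CTRL values. Its log2 fold change was 0.14, with a 95% confidence interval of −0.04 to 0.32 (limma, adjusted p = 0.294). ACTG1 gave 76631, 76512 and 69391 normalized reads in si-CTRL and 72745, 62688 and 61369 in si-SAM68 libraries, where si-SAM68 replicate 1 fell within the control range but each library lay below the control of the same number. Its interval was −0.38 to 0.02 around −0.18 (adjusted p = 0.228). The low muscle isoforms ACTG2 and ACTC1 had means of 69.2 and 93.6 normalized reads in si-CTRL cells, and neither passed the test. As paralogs with near-identical coding sequences, all of the actins can exchange reads.

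None of the 4 tropomyosins passed the test in limma, edgeR or DESeq2, and 1 had an unadjusted limma p under 0.05 (TPM3). TPM4, which encodes a nonmuscle tropomyosin and was the most abundant per kilobase, gave 95656, 75392 and 74316 normalized reads in si-CTRL and 84674, 84677 and 93713 in si-SAM68 libraries. The control values straddled those of si-SAM68 cells because of si-CTRL replicate 1, and the log2 fold change of 0.11 (adjusted p = 0.552) became 0.23 without that library (limma, adjusted p = 0.0483, in a range of 0.0483 to 0.894 over 16 alternatives), 0.055 and 0.045 without si-CTRL replicate 2 or 3, 0.060 without si-SAM68 replicate 3 and 0.026 with quantile normalization. TPM3, which encodes tropomyosins of slow muscle and of nonmuscle cells, gave 21410, 18540 and 18339 in si-CTRL and 16548, 16032 and 17127 in si-SAM68 libraries. Here the groups did not overlap, and the log2 fold change was −0.23 (95% confidence interval −0.41 to −0.04, adjusted p = 0.107). Its locus lies inside that of SLC39A1 and MIR6737, which gave 16757, 15578 and 15670 normalized reads in si-CTRL and 18563, 17543 and 16607 in si-SAM68 libraries, and the sharing of reads between them was not tested. TPM1 and TPM2, which yield stress fibre tropomyosins, showed overlapping groups. TPM1 gave 8000.2, 7605 and 6745 in si-CTRL and 8396, 7540.3 and 7889 in si-SAM68 libraries, with a log2 fold change of 0.09 (0.025 to 0.15 over the libraries left out; adjusted p = 0.516). TPM2 gave 20244, 18793 and 18146 in si-CTRL and 19205, 17207 and 17507 in si-SAM68 libraries, lower in each same-numbered pair, with a log2 fold change of −0.08 (−0.13 to −0.041 over the libraries left out; adjusted p = 0.522).

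All 4 alpha-actinin genes had log2 fold changes below 0 (for ACTN1 and ACTN4 in all 16 alternatives), as had 9258 of all 18849 loci. None of the 4 passed the test in limma or edgeR (1 had an unadjusted limma p under 0.05, ACTN1). ACTN1, the calcium-sensitive form found along stress fibres and at adhesions, gave 114331, 99349 and 95437 normalized reads in si-CTRL and 86899, 86114 and 81536 in si-SAM68 libraries. The groups did not overlap, si-CTRL replicate 1 was the highest, and the log2 fold change was −0.28 ± 0.09 (SE; limma, adjusted p = 0.0734). With quantile normalization or with DESeq2 on whole reads it passed (adjusted p = 0.0366 and 0.0253, in a range of 0.0253 to 0.235 over 16 alternatives). ACTN4, the other nonmuscle form, gave 29830, 23020.3 and 22317 in si-CTRL and 22803, 22447 and 21454 in si-SAM68 libraries, and apart from si-CTRL replicate 1 all values lay close together, lower in each same-numbered pair (log2 fold change −0.16, adjusted p = 0.373; −0.028 without that library). The muscle forms ACTN2 and ACTN3 had si-CTRL means of 113 and 19.8 normalized reads.

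Of the 6 calponin, transgelin and caldesmon genes none passed the adjusted test in limma, edgeR or DESeq2, 2 had an unadjusted p under 0.05 (CNN1 and TAGLN2, beside 27.0% of all loci), and CNN1 passed the thresholds of the study. CNN1, the calponin of differentiated smooth muscle (chromosome 19, 11649532 to 11661139), gave 52.5, 32.0 and 28.5 normalized reads in si-CTRL and 21.2, 17.5 and 19.0 in si-SAM68 libraries. All si-SAM68 values were lower, but they rested on 17 to 21 reads per library against 30 to 42 in the controls. Relative to si-CTRL cells the mean was 51.0%, with a log2 fold change of −0.89 ± 0.30 (SE; limma, adjusted p = 0.0926). Without si-CTRL replicate 1 the log2 fold change was −0.63, and the gene no longer passed the study's thresholds. TAGLN2, a transgelin of nonmuscle cells, gave 34063, 36305 and 36124 in si-CTRL and 32194, 31146 and 31034 in si-SAM68 libraries, without overlap. Its log2 fold change was −0.17 (adjusted p = 0.140), and without si-CTRL replicate 1 it was −0.20 (limma, adjusted p = 0.0371, in a range of 0.0371 to 0.346 over 16 alternatives).

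The remaining genes of this role had intervals that included 0. CALD1, which restrains myosin binding to actin, gave 12966, 9518 and 9797 normalized reads in si-CTRL and 8782, 9167 and 9141 in si-SAM68 libraries, all below the controls, of which replicate 1 was well above the rest (log2 fold change −0.24, adjusted p = 0.205; −0.097 without that library). TAGLN, a smooth muscle marker, gave 964, 1192 and 797 in si-CTRL and 1156, 926 and 822 in si-SAM68 libraries. These groups overlapped throughout, with a log2 fold change of −0.02 (95% confidence interval −0.38 to 0.34). Over the libraries left out it ranged from −0.16 to 0.13. The values of ACTA2 and CNN1, by contrast, did not overlap, although the differences between the genes were not tested. CNN2 gave 7520.2, 6855 and 5542 in si-CTRL and 8768, 7286 and 7103 in si-SAM68 libraries, higher in each same-numbered pair, with a log2 fold change of 0.22 (adjusted p = 0.274; 0.098 to 0.32 over the libraries left out). CNN3 gave 12043, 10865 and 10699.7 in si-CTRL and 11651, 11837 and 12078 in si-SAM68 libraries, with a log2 fold change of 0.08 (0.051 to 0.14 over the libraries left out; adjusted p = 0.507). Both are nonmuscle calponins, and their groups overlapped.

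**Figure D4:**
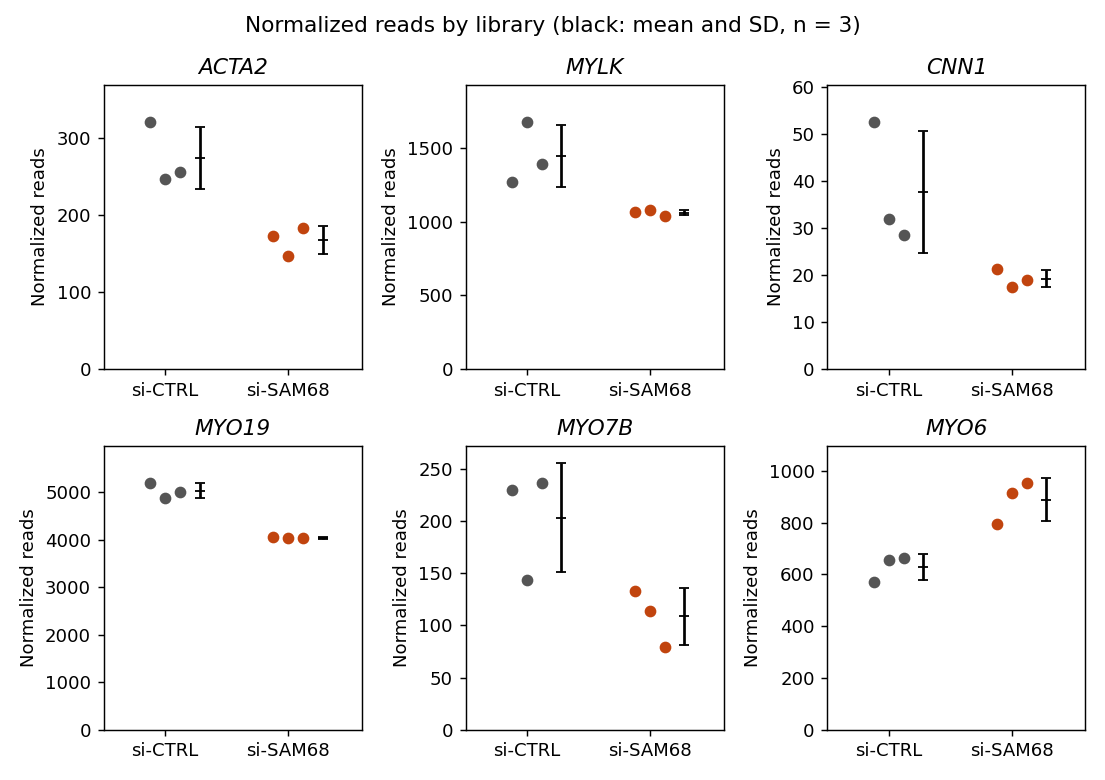
Normalized reads of 6 genes in each si-CTRL (grey) and si-SAM68 (orange) library, on axes that start at 0, with the mean and SD (n = 3) in black. The groups do not overlap for any of the 6 genes, and only MYO6 is higher in si-SAM68 cells.

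None of the 3 nonmuscle myosin II heavy chains passed the test in limma, edgeR or DESeq2 (2 had an unadjusted limma p under 0.05, MYH9 and MYH14, beside 27.0% of all loci). MYH9, the heavy chain of myosin IIA, a main source of contractile force in migrating cells, shares its locus with MIR6819 and gave 195411, 179406 and 148519 normalized reads in si-CTRL libraries. In si-SAM68 libraries it gave 211050.1, 215802 and 207116, all above the controls. The log2 fold change was 0.29 ± 0.11 (SE; limma, adjusted p = 0.114), and without si-CTRL replicate 1 it was 0.37 (adjusted p = 0.0152, in a range of 0.0152 to 0.303 over 16 alternatives), but 0.17 without si-CTRL replicate 3 or with quantile normalization. MYH10, the heavy chain of myosin IIB, gave 10032, 9186 and 7959.9 in si-CTRL and 8634, 8979.9 and 8770.1 in si-SAM68 libraries. The si-SAM68 values lay inside the control range, with a log2 fold change of −0.04 (95% confidence interval −0.24 to 0.17), or 0.040 without si-CTRL replicate 1. MYH14, the heavy chain of myosin IIC, gave 655, 598 and 613 in si-CTRL and 506, 515 and 515 in si-SAM68 libraries, without overlap (log2 fold change −0.28 ± 0.09, adjusted p = 0.0895).

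Among myosin light chains and their kinase, MYLK fell and none of the 7 tested light chains passed the test in limma or edgeR (MYL6 had an unadjusted limma p under 0.05). MYLK phosphorylates the regulatory light chains and thereby switches on myosin II (chromosome 3, 123331145 to 123603151). It gave 1269, 1676 and 1388 normalized reads in si-CTRL replicates 1 to 3 and 1066, 1076 and 1039.99 in si-SAM68 replicates 1 to 3. The si-SAM68 libraries lay close together and below every control, of which replicate 2 was the highest. The mean was 73.5% of that in si-CTRL cells, with a log2 fold change of −0.44 ± 0.11 (SE; limma, adjusted p = 0.0334). The call was lost without si-CTRL replicate 2 or 3 (adjusted p = 0.0857 and 0.0689) and on leaving out si-SAM68 replicate 1, 2 or 3 (adjusted p = 0.0945, 0.0997 and 0.128), with log2 fold changes of −0.32 and −0.46 and of −0.44, −0.45 and −0.42, in a range of 0.00349 to 0.128 over 16 limma, edgeR and DESeq2 alternatives.

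Of the 7 light chains 5 had log2 fold changes above 0, among them MYL6B at 0.03, as had 9591 of all 18849 loci. MYL6, the essential light chain of nonmuscle myosin II, gave 41889 normalized reads in si-CTRL replicate 1, 57192 and 57896 in the other controls, and 72559, 64429 and 64661 in si-SAM68 libraries. All si-SAM68 values were higher, but si-CTRL replicate 1 lay well under its group (log2 fold change 0.37 ± 0.12, limma, adjusted p = 0.0831; 0.22 without that library). DESeq2 called it (adjusted p = 0.0262, in a range of 0.0262 to 0.229 over 16 alternatives). The regulatory light chains MYL9 and MYL12B are the substrates of MYLK. MYL9 gave 8248, 8019.5 and 6669.8 in si-CTRL and 10146, 8457 and 8292 in si-SAM68 libraries, with no overlap and a log2 fold change of 0.23 (limma, adjusted p = 0.203; 0.13 to 0.29 over the libraries left out). MYL12B gave 18751, 22814 and 23323 in si-CTRL and 24775, 23369 and 25419 in si-SAM68 libraries, narrowly without overlap (log2 fold change 0.19, adjusted p = 0.234; 0.087 without si-CTRL replicate 1). The neighbouring paralog of MYL12B is not among the members, and reads of the pair can be exchanged. The remaining light chains MYL5, MYL6B, MYL2 and MYL4 had adjusted p of 0.323, 0.831, 0.967 and 0.496, and the means of MYL2 and MYL4 in si-CTRL cells were 15.97 and 29.96 normalized reads.

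Class I myosins are monomeric motors that link actin to membranes. None of the 5 tested passed the test in limma or edgeR (1 had an unadjusted limma p under 0.05, MYO1E). MYO1E, which acts in endocytosis, gave 6698, 6486 and 6246 normalized reads in si-CTRL and 7204, 8077 and 7823 in si-SAM68 libraries. The groups did not overlap, and the log2 fold change was 0.25 ± 0.08 (SE; limma, adjusted p = 0.0637). It passed without si-CTRL replicate 1 and with DESeq2 (adjusted p = 0.0198 and 0.0315, in a range of 0.0198 to 0.252 over 16 alternatives). MYO1C had a log2 fold change of −0.14 (adjusted p = 0.309), and the low MYO1D and MYO1F lay at 0.35 and 0.30 with adjusted p of 0.362 and 0.400.

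The unconventional myosins of other classes held 3 of the 5 members that passed, out of 11 tested (27.3%, beside 10.7% of all loci; the share was not tested). MYO6, the motor that moves towards the minus end of actin filaments and acts in endocytosis (chromosome 6, 76458893 to 76629254), gave 569.9, 655 and 662 normalized reads in si-CTRL replicates 1 to 3. In si-SAM68 replicates 1 to 3 it gave 795, 914 and 954. All si-SAM68 values were higher than all control values, and the mean was 141% of that in si-CTRL cells. Its log2 fold change was 0.50 ± 0.11 (SE; limma, adjusted p = 0.02001). The call was lost without si-SAM68 replicate 2 or 3 (adjusted p = 0.0860 and 0.101), with log2 fold changes of 0.47 and 0.44, in a range of 0.00107 to 0.101 over 16 alternatives.

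MYO19, a motor bound to the outer membrane of mitochondria (chromosome 17, 34851482 to 34891305), gave 5194, 4878 and 5003 normalized reads in si-CTRL and 4049.8, 4024 and 4021 in si-SAM68 libraries. The si-SAM68 libraries differed from each other by less than any pair of control libraries and lay below all of them, at 80.2% of the si-CTRL mean. Its log2 fold change was −0.32 ± 0.07 (SE; limma, adjusted p = 0.0205), and from −0.34 to −0.29 over the libraries left out. Without si-CTRL replicate 3 the adjusted p was 0.0641, and without si-SAM68 replicate 1, 2 or 3 it was 0.0617, 0.0991 and 0.0834, in a range of 0.00180 to 0.0991 over 16 alternatives. Its locus overlaps that of ZNHIT3, which gave 3016 to 3203 normalized reads in si-CTRL and 2838 to 3336 in si-SAM68 libraries.

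MYO7B, a motor of the intestinal brush border (chromosome 2, 128317266 to 128395303), gave 229.97, 143 and 237 normalized reads in si-CTRL and 133, 114 and 79.3 in si-SAM68 libraries. Si-CTRL replicate 2 lay near si-SAM68 replicate 1, and the groups were otherwise well apart, with a mean in si-SAM68 cells of 53.5% of that in si-CTRL cells. The log2 fold change was −0.89 ± 0.24 (SE; limma, adjusted p = 0.0434), close in size to that of CNN1, and from −1.13 to −0.68 over the libraries left out. Of the 5 calls this one was lost in the most alternatives. It was lost with the replicate block (adjusted p = 0.0579), with no filter on low loci (0.0686) with quantile normalization (0.0506) and without the mean-variance trend (0.1155). It was lost as well without si-CTRL replicate 1 or 3 (0.0597 and 0.121) and on leaving out si-SAM68 replicate 1, 2 or 3 (0.0637, 0.0923 and 0.171), in a range of 0.00385 to 0.171 over 16 alternatives.

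The other 8 unconventional myosins did not pass. MYO10, the motor of filopodia, gave 26765, 25060.0 and 23093 normalized reads in si-CTRL and 21186, 24549.9 and 23511 in si-SAM68 libraries, which overlapped (log2 fold change −0.11, adjusted p = 0.431; −0.17 to −0.053 over the libraries left out). MYO5A, a cargo carrier, gave 756, 614 and 532 in si-CTRL and 548, 595 and 534 in si-SAM68 libraries, also with overlap (log2 fold change −0.17, adjusted p = 0.452; −0.29 to −0.034 over the libraries left out). MYO18A, which shares its locus with TIAF1, gave 3331, 2277 and 2333 in si-CTRL and 2783, 2664 and 2571 in si-SAM68 libraries. There si-CTRL replicate 1 lay above and the other controls below all si-SAM68 values (log2 fold change 0.04, adjusted p = 0.894). The log2 fold change was 0.21 without si-CTRL replicate 1, and −0.061 and −0.044 without si-CTRL replicate 2 or 3. Named after its values were seen, MYO5B, a carrier of recycling endosomes, gave 202, 164 and 185 in si-CTRL and 239.8, 279 and 239 in si-SAM68 libraries. Its groups did not overlap, with a log2 fold change of 0.46 ± 0.14 and an adjusted p of 0.0609 in limma. It passed with quantile normalization, without si-CTRL replicate 1 and with DESeq2.

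Most muscle myosin heavy chains gave few or no reads. Of 12 such loci, 4 were tested, MYH15, MYH16, MYH3 and MYH7B, and none passed the test in limma or edgeR (2 had an unadjusted limma p under 0.05, MYH15 and MYH16, beside 27.0% of all loci). MYH15 gave 1967, 1581 and 1933 normalized reads in si-CTRL and 1329.8, 1453 and 1591 in si-SAM68 libraries, with an overlap between si-CTRL replicate 2 and si-SAM68 replicate 3, and a log2 fold change of −0.32 (adjusted p = 0.0921). It was lower in each same-numbered pair, and passed without si-CTRL replicate 2 and with DESeq2. MYH16, whose human copy is a pseudogene, gave 846, 683 and 812 in si-CTRL and 537, 675 and 613 in si-SAM68 libraries. Its groups did not overlap (log2 fold change −0.36, adjusted p = 0.0918). Both were named after their values were seen. MYH11, the smooth muscle heavy chain, reached at most 19 reads in any library. At 0 in every library were MYH1, MYH2, MYH4, MYH7, MYH8, MYH13, MYL1, MYO1H and MYO3A, which allows each of them up to 3 reads in a library, for counting error only.

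The make-up of each family was then compared as the share that each gene held of its family's normalized reads per kilobase, a quantity that does not depend on scaling between libraries. Beta-actin made up 74.3%, 75.9% and 77.1% of the actins in si-CTRL and 78.8%, 79.99% and 80.2% in si-SAM68 libraries. ACTG1 held 25.5%, 23.9% and 22.7% in si-CTRL and 21.1%, 19.9% and 19.7% in si-SAM68 libraries. The share of ACTB was higher in each si-SAM68 library than in any control, by 3.89 percentage points in the mean, although neither gene passed the test alone. The same shares of the myosin II heavy chains showed MYH9 at 94.5% to 94.8% in si-CTRL and 95.7% to 95.9% in si-SAM68 libraries. MYH10 held 4.84%, 4.82% and 5.03% in si-CTRL and 3.90%, 3.96% and 4.03% in si-SAM68 libraries. MYH14 held 0.35%, 0.35% and 0.43% against 0.25%, 0.25% and 0.26%. Thus all 3 shares of this family were separated by group, with MYH9 the one that was higher.

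Among tropomyosins the share of TPM3 was 9.76%, 10.1% and 10.2% in si-CTRL and 8.43%, 8.46% and 8.38% in si-SAM68 libraries, and those of TPM1, TPM2 and TPM4 overlapped. The share of ACTN1 among alpha-actinins was 81.99%, 83.7% and 83.5% in si-CTRL and 81.9%, 81.97% and 81.9% in si-SAM68 libraries, separated by little. Across 45 such shares in 8 families, groups did not overlap for 21 (46.7%, beside 33.9% of all loci by level). The shares of a family sum to 100%, so that these are not independent differences. They are given as description only.

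**Figure D5:**
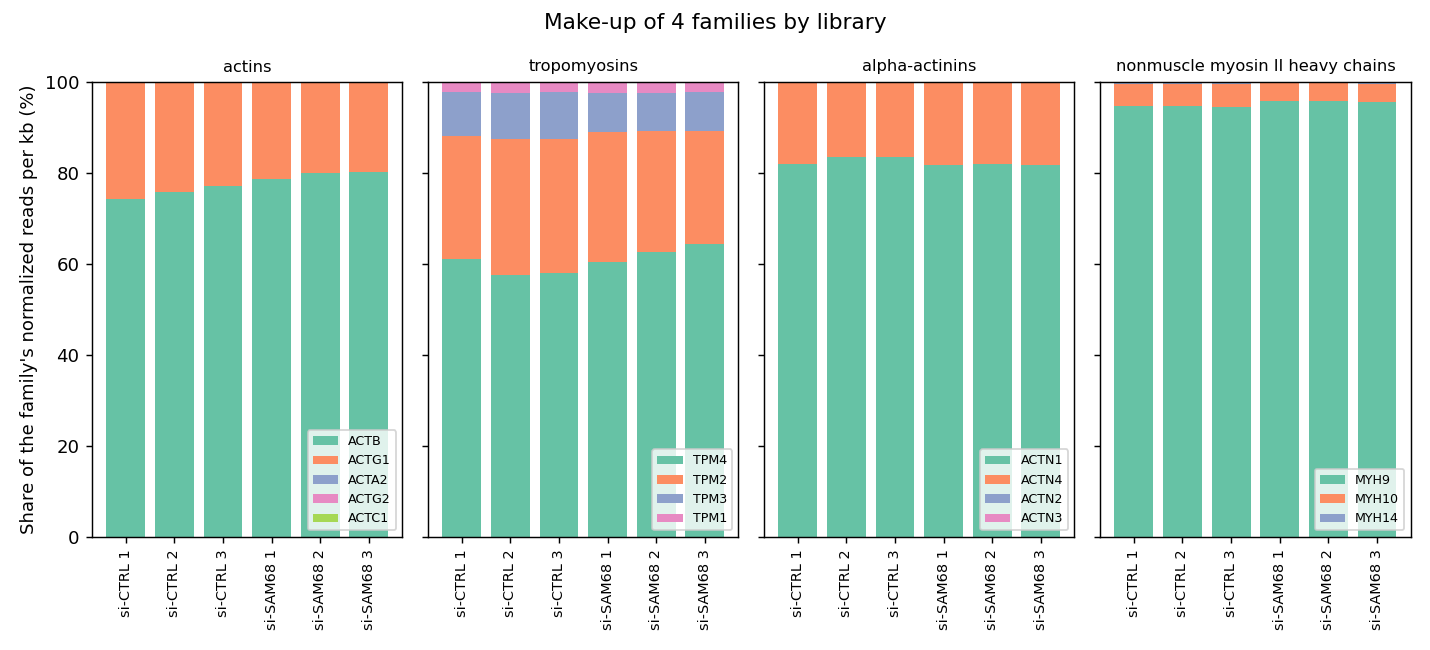
Share (%) of each family's normalized reads per kilobase of exons held by each gene, as stacked bars from 0 to 100% for each of the 6 libraries, in actins, tropomyosins, alpha-actinins and nonmuscle myosin II heavy chains. ACTB holds 74.3% to 77.1% of the actins in si-CTRL and 78.8% to 80.2% in si-SAM68 libraries, while the most abundant gene of each family is the same in all libraries.

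Many contractile genes are classical targets of serum response factor, which binds a motif known as the CArG box, so that the start regions of the members were searched for it. Of the 70 members, 55 matched 83 starts in the RefSeq promoter sequences (GRCh38.p14), and in the 250 bases before the start 10 of these 83 (12.05%) held the box, beside 1.16% of all 35116 promoters. The motif reads the same on both strands, and it is 10 bases long. Of the 40 tested members with a matched start 8 held it, ACTC1, ACTG1, ACTG2, ACTN1, CNN2, MYLK, MYO1E and TPM4. The start matched for MYLK lies 263784 bases inside its gene, so that its box is not in the start region of the whole kinase and is not shown. Windows of 30 bases are shown for 3 others, chosen after their values were seen, with the box in capitals.
ACTN1 (chr14:68977718-68977747, minus strand): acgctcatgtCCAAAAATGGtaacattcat
ACTG1 (chr17:81512874-81512903, minus strand): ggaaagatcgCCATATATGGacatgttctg
MYO1E (chr15:59372883-59372912, minus strand): gctgagttctCCATTTATGGacagattgcc
The box began 94 bases before the start in ACTG1, 171 in ACTN1, whose start lies 1736 bases inside its gene, and 31 in MYO1E. Of the 8 genes limma and edgeR called MYLK only, beside 10.7% of all loci in each. DESeq2 called ACTN1 and MYO1E as well, beside 14.9% of all loci. The log2 fold changes of the others than MYLK ranged from −0.28 in ACTN1 to 0.25 in MYO1E, and a link between the box and a change was not tested. A match is a description of these letters, not a binding site or a cause, and for a member without the box it says only that the letters are not in the windows searched. The 15 members with no start in these sequences, among them ACTB, TAGLN and MYL9, were not searched.

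Genes that build and control the actin network outside the members were compared in 5 lists. For the Arp2/3 complex and its activators, which nucleate branched filaments, none of 13 tested loci passed the test in limma or edgeR and 2 did in DESeq2 (4 had an unadjusted limma p under 0.05), beside 10.7% of all loci in limma and edgeR, 14.9% in DESeq2 and 27.0% by unadjusted p, and the median log2 fold change was 0.05. Formins, which nucleate unbranched filaments, had 5 of 11 tested genes past it, 2 higher and 3 lower (45.5%, beside 10.7% of all loci), with a median of −0.12. DAAM1 gave 821, 697 and 676 normalized reads in si-CTRL and 1607, 1490.2 and 1585 in si-SAM68 libraries, the largest change in size among the tested genes of these lists, and rose by a log2 fold change of 1.10 ± 0.10 (SE; limma, adjusted p = 0.000333). FMN2 rose by 0.43 (adjusted p = 0.00790), and both passed in all 16 alternatives. FMN1 fell, with a log2 fold change of −0.51 (adjusted p = 0.0177), as did FMNL1 with −0.49 (adjusted p = 0.0470). FMN1 no longer passed without si-CTRL replicate 3 (0.0535) or si-SAM68 replicate 1 or 3 (0.0585 and 0.0541), in a range of 0.000496 to 0.0677. FMNL1 passed with none of the libraries left out except si-CTRL replicate 2: its adjusted p was 0.0522 and 0.0720 without si-CTRL replicate 1 or 3 and 0.0949, 0.104 and 0.189 without si-SAM68 replicate 1, 2 or 3, in a range of 0.00909 to 0.189. FMNL3, named after its values were seen, fell, with a log2 fold change of −0.31 (adjusted p = 0.0453). It no longer passed with no filter, without the mean-variance trend, with the replicate block (0.0649), without si-CTRL replicate 2 or 3 (0.0867 and 0.0692) or without si-SAM68 replicate 1, 2 or 3 (0.1095, 0.153 and 0.142), in a range of 0.0159 to 0.153, and passed in the other 8 of 16 alternatives.

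Among genes of filament turnover, capping and monomer binding, 3 of 22 tested passed (13.6%, beside 10.7% of all loci), all lower, with a median log2 fold change of 0.06. They were TMOD1, which caps pointed ends (−0.60, limma, adjusted p = 0.0155), the coronin CORO1A (−0.53, adjusted p = 0.0370) and the monomer-binding CAP2 (−0.34, adjusted p = 0.0468). TMOD1 gave 414, 345 and 337 normalized reads in si-CTRL and 243, 231 and 247 in si-SAM68 libraries, which did not overlap. It no longer passed without si-SAM68 replicate 1, 2 or 3 (0.0521, 0.0670 and 0.0643). Without si-CTRL replicate 2 or 3 and without each si-SAM68 replicate, the adjusted p was 0.0877, 0.116, 0.0904, 0.112 and 0.136 for CORO1A and 0.0544, 0.0848, 0.0870, 0.191 and 0.133 for CAP2. The replicate block also ended the call of CORO1A (0.0569). Over 16 alternatives the ranges were 0.00130 to 0.0670 for TMOD1, 0.00274 to 0.136 for CORO1A and 0.0122 to 0.191 for CAP2. Of 12 crosslinkers and bundlers 2 passed (16.7%, beside 10.7% of all loci), both higher, with a median of 0.06. The plastin PLS1 gave 1295, 1624 and 1586 in si-CTRL and 1869.8, 1963 and 2087 in si-SAM68 libraries (0.40, adjusted p = 0.0378). On leaving out si-CTRL replicate 3, or si-SAM68 replicate 1, 2 or 3, its adjusted p was 0.0614, 0.0789, 0.118 and 0.155, in a range of 0.00632 to 0.155 over 16 alternatives.

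Of 14 tested genes around serum response factor, 3 passed (21.4%, beside 10.7% of all loci), 1 higher and 2 lower, with a median log2 fold change of −0.01. Smoothelin (SMTN), a protein of contractile smooth muscle cells, gave 4228, 3612 and 4158 normalized reads in si-CTRL and 2084, 2438 and 2243 in si-SAM68 libraries, and fell (−0.83 ± 0.09, SE; limma, adjusted p = 0.00101). FHL1, a LIM protein of muscle, gave 975, 997 and 1099.9 in si-CTRL and 638, 627 and 656 in si-SAM68 libraries, and fell (−0.67, adjusted p = 0.00244). Vinculin (VCL), which anchors actin at adhesions, gave 32343, 29555 and 29504 in si-CTRL and 38570.0, 41324 and 37393 in si-SAM68 libraries, and rose (0.36, adjusted p = 0.0178). SMTN and FHL1 passed in all 16 alternatives. VCL passed without si-CTRL replicate 1, and without si-CTRL replicate 2 or 3 or si-SAM68 replicate 1, 2 or 3 its adjusted p was 0.0548, 0.0641, 0.0584, 0.0955 and 0.0567, in a range of 0.000708 to 0.0955. Of the genes named in these lists, FMN1, FMNL1, FMNL3, CORO1A, CAP2, PLS1 and VCL did not pass without the mean-variance trend, FMNL1, FMNL3, CORO1A, CAP2 and PLS1 did not with no filter, and FMNL1 did not with quantile normalization.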

How the data were processed

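RNA of 6 libraries of MDA-MB-231 cells (3 si-CTRL, 3 si-SAM68) was analysed from 1 table. The authors deposited a signal, the reads of each locus divided by a DESeq2 size factor. The submitters' processing notes name hg19, STAR 2.4.0, SAMtools, Picard, FastQC and DESeq2. The counting program and the use of strand are not given in the sources used here. Dividing each library by its smallest step gave whole reads for 100% of values (tolerance 0.02 reads). Limma 3.58.1 (R 4.3.3; eBayes with trend, two-sided) was fitted to log2(value + 1) for the 18849 loci whose mean reached 10. On the recovered reads edgeR 4.0.16 called 2026 and DESeq2 1.42.0 called 2811 loci. Lengths were unions of GENCODE v29 basic exons. Same-numbered libraries deviated together (r = 0.105, 0.231 and 0.125), and same-numbered pairs were described on that basis. The limma fit that gave the reported p-values and intervals did not include this pairing. A replicate block, used as an alternative only, changed the number of loci called from 2017 to 1697. Named genes were KHDRBS1, every member past either threshold, a fixed list of 28 members, and up to 4 genes of each further list that passed with the largest changes. Members and lists were chosen with earlier results of these data known. Some genes and 1 gene list are not reported here.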

Additional observations from a re-analysis of the deposited data

How the results depend on the processing

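Alternatives were TMM factors, quantile normalization, pseudocounts of 0.1 and 5, no filter or a minimum mean of 50, limma without a mean-variance trend, a replicate block, leaving out single libraries, and edgeR and DESeq2 on recovered reads. Of 463 values for 29 named members, 421 kept their direction and their side of the threshold, 27 no longer passed, 8 newly passed and 7 changed sign, none of the last in a gene that had passed. KHDRBS1 passed in all 16. Members that passed numbered 1 higher and 4 lower as reported (2017 of all 18849 loci passed). Quantile normalization gave 2 higher and 4 lower (2040 of all loci). DESeq2 gave 4 higher and 6 lower (2811 of all loci, 14.9%). The cause of these differences was not tested. Limma without the trend gave 0 higher and 0 lower (899 of all loci), since ACTA2, MYO6, MYO19, MYLK and MYO7B then had adjusted p of 0.0510, 0.0619, 0.0664, 0.0970 and 0.1155. With single libraries left out, 0 to 5 members were higher and 0 to 4 lower, and 625 to 2839 of all loci passed. The 2839 were found without si-CTRL replicate 1, and the cause was not tested. The replicate block ended the call of MYO7B (0.0579) and changed no other call among the named members; outside them, it ended those of CORO1A (0.0569) and FMNL3 (0.0649). The sign changed for TAGLN (0.0022) with quantile normalization, and, over the libraries left out, log2 fold changes ranged from −0.16 to 0.13 for TAGLN, −0.13 to 0.040 for MYH10 and −0.061 to 0.21 for MYO18A; the cause was not tested. At a minimum of 50, CNN1 was not tested.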
